A study of Mus musculus with 42 samples.

Results

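The genes of the T cell receptor complex and its partners were followed through 7 library preparation protocols in liver RNA of the mouse. The members are a list of gene names, with no measured value in the rule: Cd3d, Cd3e, Cd3g, Cd247, Cd4, Cd8a, Cd8b1, Lck, Thy1 and Cd2, which are 10 of the 47729 genes in the deposited tables. All mice carried Gfi1Cre/+;Rpl22HA/HA, were untreated, and gave RNA from whole liver. Their age was given as P30 in the growth protocol and as P1 in the developmental stage tag. The methods of the study state P30 for the mice that gave the RNA, and P1 for other mice used for immunostaining. The Gfi1-Cre allele switches on an HA-tagged form of the ribosomal protein Rpl22 in cells that express Gfi1 or descend from such cells, and those cells include blood lineages, so that the IP fraction, RNA on ribosomes pulled down with an HA antibody, can be set against the input, RNA of the homogenate before the pull-down. No mouse without the tag or without Cre was analysed here. The RNA of 3 mice and 2 fractions was divided over NEB (NEBNext Ultra Directional), NuG (NuGEN Ovation V2), SMTer (SMARTer Stranded Pico) and Tru4 (TruSeq v2), each from 4 ng, SMTseq0.25 and SMTseq4 (SMART-Seq v4 from 0.25 and 4 ng), and Tru70 (TruSeq v2 from 70 ng), which made 42 libraries in 14 groups of 3. The protocols are therefore repeated measurements of the same 6 RNAs and not independent mice.

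T cells recognise peptides through a receptor whose antigen-binding chains have almost no cytoplasmic part of their own. The signal is carried by the CD3 delta, epsilon and gamma chains and by the zeta chain, encoded by Cd3d, Cd3e, Cd3g and Cd247, whose tails are phosphorylated by the kinase Lck, held near the receptor by the coreceptors CD4 or CD8. In the liver, T cells are a minor resident and passing population of the sinusoids beside the natural killer cells, B cells and the far more numerous Kupffer cells.

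On GRCm38 all 10 are annotated as protein-coding genes, and counts were summed over their exons. On the plus strand lie Cd3d at chr9:44981786-44987339, Thy1 at chr9:44043384-44048579, Cd247 at chr1:165788681-165877277, Cd8b1 at chr6:71322788-71337494 and Cd8a at chr6:71373427-71379173. On the minus strand lie Cd3g at chr9:44969572-44980431, Cd3e at chr9:44998740-45009627, Cd4 at chr6:124864692-124888221, Lck at chr4:129548344-129573641 and Cd2 at chr3:101275899-101287939. Cd8b1 and Cd8a are neighbours on chromosome 6, as Cd3g, Cd3d and Cd3e are on chromosome 9.

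Cd3g, Cd3d and Cd3e form a cluster, with the annotated start sites of Cd3g and Cd3d only 1355 bases apart on opposite strands and that of Cd3e 27825 bases from that of Cd3d. Their promoter windows are shown because these 3 genes are neighbours, and that of Cd8a because it was the least abundant coreceptor chain per length. Each window holds 250 bases before and 50 after the start site, 5′ to 3′ on the strand of the gene, from RefSeq on GRCm38.p6. The tables matched 6 of the 10 genes, and not Cd4, Cd8b1, Thy1 and Cd2. Capitals mark matches on either strand to letters that are textbook cores of factors used in T cells: TGTGGT for the RUNX family, CAGCTG for E-box proteins, CTTTGA for the TCF/LEF family, AGGAAG for the ETS family and AGATAA for the GATA family. No 2 matches overlap in the windows shown.
Cd3g, chr9:44980382-44980681, minus strand: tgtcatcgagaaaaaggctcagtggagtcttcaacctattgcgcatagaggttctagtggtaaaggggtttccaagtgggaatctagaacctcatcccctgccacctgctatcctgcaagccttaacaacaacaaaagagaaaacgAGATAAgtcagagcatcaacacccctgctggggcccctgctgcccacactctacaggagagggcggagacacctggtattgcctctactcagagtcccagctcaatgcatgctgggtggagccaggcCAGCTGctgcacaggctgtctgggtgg
Cd3d, chr9:44981536-44981835, plus strand: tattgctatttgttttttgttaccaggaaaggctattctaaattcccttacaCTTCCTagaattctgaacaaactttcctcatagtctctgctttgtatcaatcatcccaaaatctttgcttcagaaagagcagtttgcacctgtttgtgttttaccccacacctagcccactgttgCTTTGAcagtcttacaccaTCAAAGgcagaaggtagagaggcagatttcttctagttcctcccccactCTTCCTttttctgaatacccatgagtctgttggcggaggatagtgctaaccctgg
Cd3e, chr9:45009562-45009861, minus strand: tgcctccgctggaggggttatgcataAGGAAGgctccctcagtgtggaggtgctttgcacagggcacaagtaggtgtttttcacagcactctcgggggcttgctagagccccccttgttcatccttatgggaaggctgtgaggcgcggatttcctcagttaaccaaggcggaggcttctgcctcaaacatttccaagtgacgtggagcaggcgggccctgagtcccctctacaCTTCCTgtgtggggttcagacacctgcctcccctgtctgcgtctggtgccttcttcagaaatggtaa
Cd8a, chr6:71373177-71373476, plus strand: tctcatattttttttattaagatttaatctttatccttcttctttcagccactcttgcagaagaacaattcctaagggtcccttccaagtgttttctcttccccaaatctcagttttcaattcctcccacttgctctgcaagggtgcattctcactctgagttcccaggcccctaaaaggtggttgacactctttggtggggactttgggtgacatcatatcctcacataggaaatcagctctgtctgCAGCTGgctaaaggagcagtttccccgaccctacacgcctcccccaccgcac
Among all 32851 windows of this length, 16.8% held the RUNX letters, 16.3% the E-box, 16% TCF/LEF, 35.4% ETS and 11.2% GATA. Cd3d held 4 matches, 2 of ETS and 2 of TCF/LEF, Cd3e 2 of ETS, Cd3g 1 of GATA and 1 of the E-box, and Cd8a 1 of the E-box. The ETS letters are the most common of the 5 among all windows, and a match is a description of these letters only.

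The fraction of replicate 3 was exchanged in NEB, NuG, SMTer and Tru4. The labels give the opposite fraction, and the exchange follows a table of detected features in the study. In 8 of 8 of these libraries the number of detected genes, counted from the files, equalled the one tabulated for the other fraction, and in 34 of 34 other libraries it equalled the one for their own. The exchange was made on these numbers, so this match is not a separate check of it. By Spearman correlation with replicates 1 and 2, 7 of the 8 were closer to the other fraction and 33 of the 34 to their own. Both exceptions were in NEB. Replicate 3 labelled input had 0.878 with its labelled fraction and 0.862 with the other, and IP replicate 2 had 0.856 and 0.857. With this assignment the summed level of the 10 genes lay between 184.4 and 326.3 CPM (each count scaled to a common library total) in the 18 IP libraries with exon counts and reached at most 12.7 CPM in the 18 input libraries. The 3 exchanged libraries of NEB, NuG and Tru4 that are labelled input summed to 253.3 to 307.9 CPM, and their partners labelled IP to at most 6.56 CPM. With the fractions as labelled, 0 of the 10 genes passed the edgeR test of IP against input in NEB, NuG or Tru4, and 0 had an unadjusted p under 0.05, so the calls made there with all 3 mice rest on the exchange. Without replicate 3, where no exchange is needed, 10 of 10 genes passed in Tru4, 9 of 9 tested in NuG and 0 of 6 tested in NEB, where 4 had an unadjusted p under 0.05. Total counts ran from 3223153 to 45466334 outside SMTer, where a count of 3 corresponds to 0.066 to 0.9308 CPM, and from 464199 to 762562 in SMTer, where the counter assigned 76.8% to 93.8% of the reads to no gene.

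**Figure D1:**
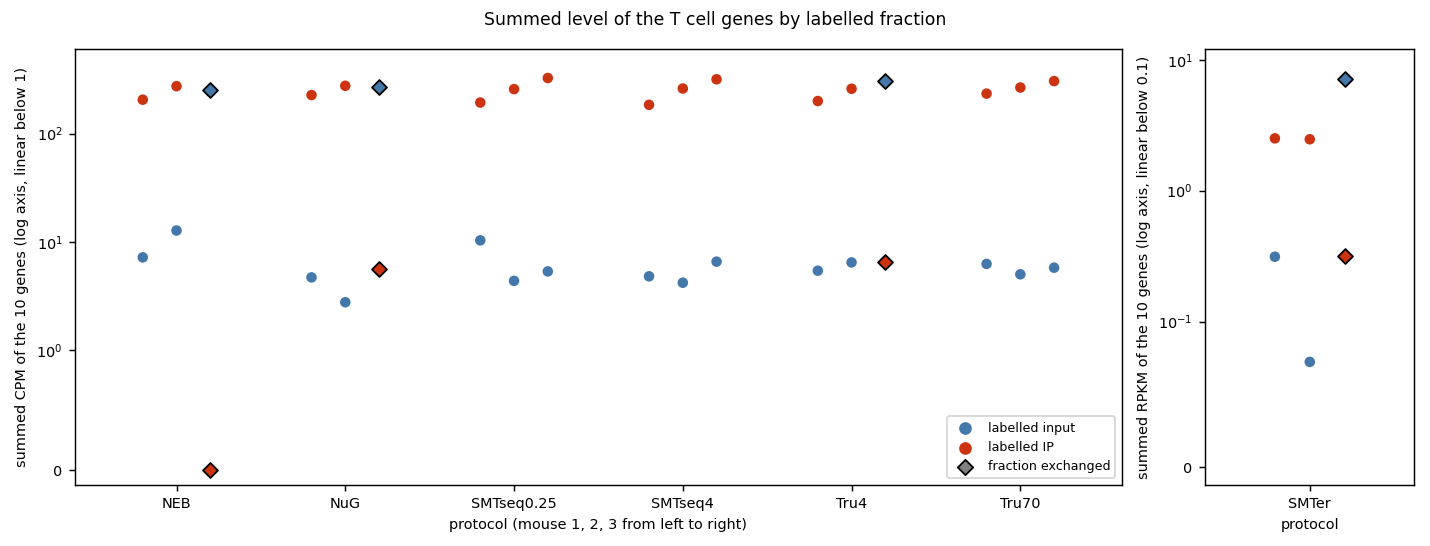
Summed level of the 10 T cell genes in each library by labelled fraction, in CPM for 6 protocols and in RPKM for SMTer, with the 3 mice from left to right and diamonds for the 8 libraries whose fraction was exchanged. In the 6 CPM protocols the upper points lie between 184.4 and 326.3 CPM and the lower ones at or below 12.7 CPM, and the diamonds labelled input lie with the upper points.

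In the IP the 10 genes stood far above the input: of 55 gene and protocol pairs tested in the 6 count protocols, 55 had a difference above 0, 50 passed as higher in the IP and 0 as lower. The low-count filter keeps a gene that is high enough in 1 fraction alone. Of 30 member values in the input, 26 in NEB, 23 in NuG and 11 each in SMTseq0.25 and Tru70 were at 3 counts or fewer. A member that passed the filter only through the IP could hardly come out lower, so its direction adds little by itself. Tests ran on counts with edgeR's quasi-likelihood method, after TMM scaling and with no term for the mouse. Adjusted p-values are Benjamini-Hochberg over all genes tested. In Tru70, Tru4 and SMTseq4 all 10 passed, against 18.1%, 25.9% and 30.4% of all tested genes called higher in the IP. In SMTseq0.25, 8 of 10 passed against 19.8%, in NuG 9 of 9 tested against 24%, and in NEB 3 of 6 tested against 5.82%. Cd247 was the gene left out by the low-count filter in NuG, and Cd3e, Cd247, Cd8a and Cd8b1 were left out in NEB. Every IP library lay above every input library for 10 of 10 genes in Tru70, Tru4, SMTseq4 and SMTseq0.25, against 25.8%, 29.1%, 32.7% and 26% of all genes with a value above 0, for 9 of 10 in NuG against 47%, and for 7 of 10 in NEB against 19.2%. The median log2 difference of the tested members was 5.34 in Tru70, 5.0 in Tru4, 4.82 in SMTseq4, 5.03 in SMTseq0.25, 4.21 in NuG and 7.0 in NEB, where the medians over all tested genes were between -0.05 and 0.06. A bulk measurement cannot tell apart fewer T cells from less RNA per T cell, and this holds for every level below.

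Ratios of CPM are larger than the fitted differences, because CPM divides by the total count while the fit rescales by TMM. The median CPM ratio of all tested genes was 0.41 to 0.56 on the log2 scale in NEB, SMTseq0.25, SMTseq4, Tru4 and Tru70, and 1.60 in NuG. The members' differences stayed above 0 under both scalings in every protocol.

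The signalling chains of the receptor came first. Cd3d, the delta chain, stood at 0, 0.355 and 0 CPM in the input of the 3 mice in Tru70 and at 24.1, 16.6 and 33 CPM in the IP. The groups did not overlap, and the fitted log2 difference was 7.15 ± 1.07 (SE, n = 3 mice, adjusted p = 8.2e-04, edgeR). Tru4, from 4 ng of the same RNA, gave 0.383, 0.594 and 0.452 CPM in the input and 20.9, 24.2 and 25.6 CPM in the IP, with a difference of 5.08 ± 0.25 (adjusted p = 9.7e-07, edgeR). The lower difference in Tru4 went with an input that was above 0 in all 3 mice, where 2 of 3 Tru70 input libraries held no count.

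Cd3e, the epsilon chain, was measured at 0.0388, 0.917 and 0.498 CPM in the input in Tru70 and at 29.7, 33.7 and 18.7 CPM in the IP, a log2 difference of 5.37 ± 0.80 (adjusted p = 8.1e-04, edgeR). The highest level of any member in the 6 count protocols was that of Cd3e in NuG, with 93.6, 106.0 and 94 CPM in the IP. Its input there was 1.07, 0.131 and 2.53 CPM. In NEB the 3 IP libraries held 1, 630 and 451 counts of Cd3e and the input none, so that 1 mouse was at the floor and the others were not.

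Cd3g, the gamma chain, stood at 0.116, 0.651 and 0 CPM in the input in Tru70 and at 31.2, 23.8 and 40 CPM in the IP, a log2 difference of 6.47 ± 0.93 (adjusted p = 6.9e-04, edgeR). Its smallest standard error was in Tru4, where the difference was 5.46 ± 0.34 (adjusted p = 2.9e-06, edgeR). Cd3g over Cd3d per exonic base in the IP was 0.673 to 0.793 in Tru70 and 0.654 to 0.749 in SMTseq4, and these are 3 libraries each. In NuG the same ratio ran from 0.805 to 2.29.

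Cd247, the zeta chain, was the lowest of the 10 per exonic length in all 6 count protocols. In Tru70 it was at 0.116, 0 and 0.218 CPM in the input and at 8.06, 10.5 and 5.78 CPM in the IP, a log2 difference of 5.73 ± 1.18 (adjusted p = 4.8e-03, edgeR). In SMTseq0.25 its difference of 4.09 ± 1.66 did not pass (adjusted p = 0.087, edgeR), but passed with the mouse as a block (adjusted p = 0.033, edgeR). Cd247 is also the member with a doubtful identity in some tables, since 3007 of its 5329 exonic bases (56.4%) are shared with exons of Pou2f1 on the opposite strand. The study removed ambiguous reads. If reads from the shared bases were dropped, the level of Cd247 per full exonic length is too low, and its rank over the unshared bases was not tested.

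**Figure D2:**
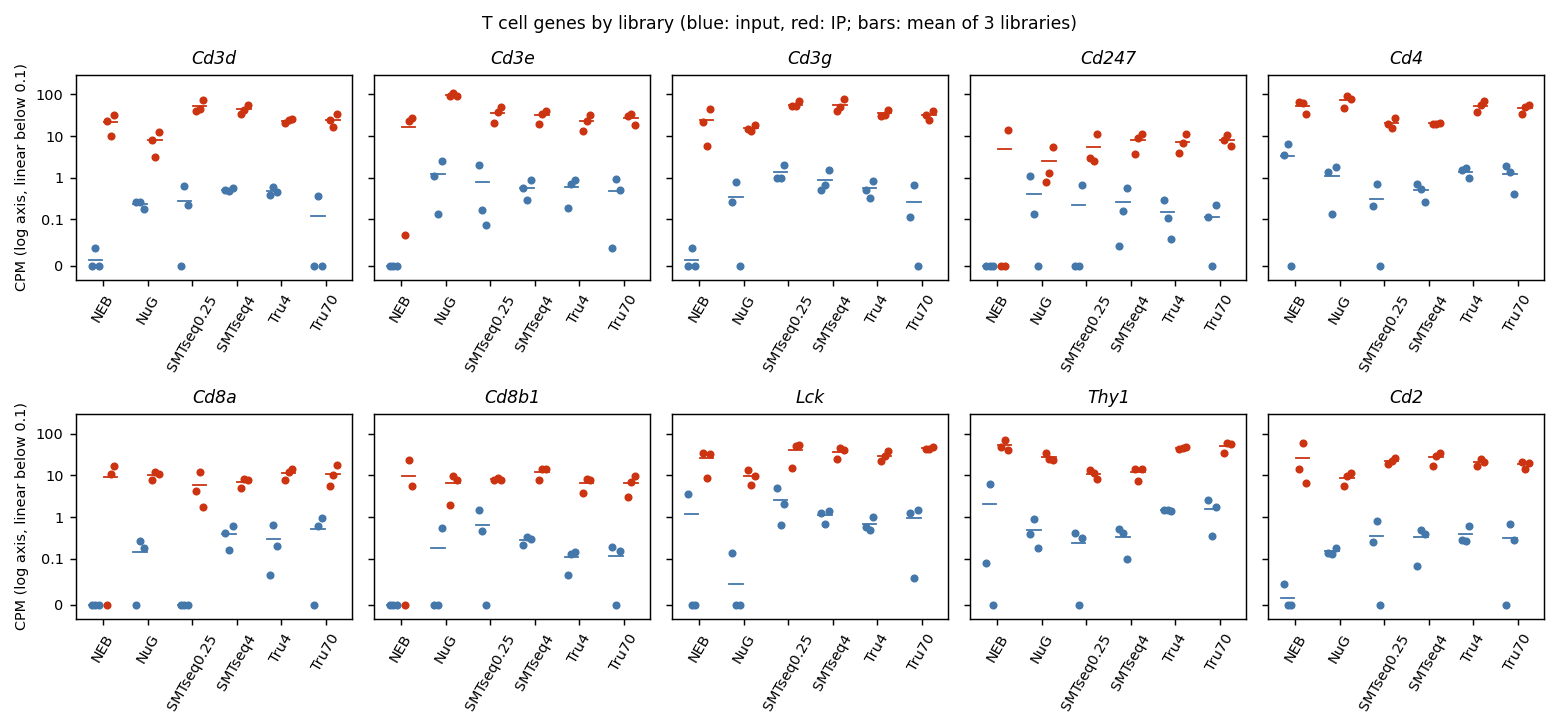
CPM of each gene in each library of the 6 protocols with exon counts, input in blue and IP in red, with a bar at the mean of 3 libraries and a log axis that is linear below 0.1 CPM. IP points lie above the input points of the same protocol except for Cd247 in NEB and NuG and for Cd8a and Cd8b1 in NEB, where points overlap.

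The coreceptors came next. Cd4, which binds MHC class II on the antigen-presenting cell, was at 1.94, 1.36 and 0.405 CPM in the input in Tru70 and at 34.1, 48.5 and 55.2 CPM in the IP, a log2 difference of 4.79 ± 0.52 (adjusted p = 1.3e-04, edgeR). Its difference was 4.71 ± 0.26 in Tru4 and 4.79 ± 0.34 in SMTseq4. SMTseq4 and SMTseq0.25 measured less of it in the IP, 19.4 to 21 and 15.4 to 27.2 CPM, than Tru70, and the ranges do not overlap. The study sequenced the SMART-Seq libraries at another centre and on another instrument than the other libraries, so kit and sequencing cannot be told apart.

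Cd8a and Cd8b1 encode the alpha and beta chain of the receptor for MHC class I. Cd8a was at 0, 0.621 and 0.966 CPM in the input in Tru70 and at 5.52, 10.1 and 17.4 CPM in the IP. Its difference of 3.87 ± 1.14 was the smallest of the 10 in Tru70 (adjusted p = 0.026, edgeR), and it did not pass without replicate 2 (adjusted p = 0.145, edgeR) or without replicate 3 (adjusted p = 0.149, edgeR). In Tru4 Cd8a passed with 4.61 ± 0.61 (adjusted p = 2.3e-04, edgeR). Cd8b1 was at 0.194, 0 and 0.156 CPM in the input in Tru70 and at 3.08, 6.85 and 9.73 CPM in the IP, a difference of 5.32 ± 1.28 (adjusted p = 0.011, edgeR), which did not pass without replicate 3 (adjusted p = 0.115, edgeR). In SMTseq0.25 Cd8b1 did not pass with 3.14 ± 1.22 (adjusted p = 0.077, edgeR), and in NuG it passed with 3.68 ± 1.09 (adjusted p = 0.012, edgeR) but not without replicate 2 (adjusted p = 0.123, edgeR). Cd8a had no count in the input of SMTseq0.25 and 60, 177 and 25 counts in the IP, at least 46.7-fold higher against a floor of 3 counts per input library.

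Cd4 exceeded Cd8a per exonic base in every IP library of the 6 count protocols in which Cd8a had more than 3 counts. The ratio was 4.09 to 4.47 in the 3 Tru4 libraries, 2.86 to 5.57 in Tru70, 5.43 to 6.99 in NuG and 2.1 to 3.63 in SMTseq4. It ran from 1.18 to 14.4 in SMTseq0.25, where Cd8a rested on 25 to 177 counts. Both genes are also made by subsets of dendritic cells, as background, and the share of T cells in these values was not tested.

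Lck, the kinase that starts the signal, was at 1.28, 0.0592 and 1.46 CPM in the input in Tru70 and at 42.1, 42.5 and 48.1 CPM in the IP, a log2 difference of 5.14 ± 0.79 (adjusted p = 9.6e-04, edgeR). In NuG the input held 1 count of Lck in all and the IP 70, 31 and 31 counts, a pooled ratio of 199.0 with a 95% counting interval of 35.1 to 7918.2. The counting interval covers counting error only. In SMTseq0.25 Lck passed with 3.49 ± 0.74 (adjusted p = 6.8e-03, edgeR), but not without replicate 3 (adjusted p = 0.078, edgeR).

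Thy1, a surface glycoprotein of T cells also found on stromal and neural cells, was at 2.56, 0.355 and 1.78 CPM in the input in Tru70 and at 34.9, 59.4 and 57.8 CPM in the IP, a log2 difference of 4.58 ± 0.61 (adjusted p = 4.5e-04, edgeR). Its IP level was 43.6 to 46.9 CPM in Tru4 and 8.3 to 13.2 and 7.41 to 14.2 CPM in SMTseq0.25 and SMTseq4, so that the SMART-Seq libraries lay below all TruSeq libraries. As for Cd4, kit and sequencing centre cannot be told apart in this comparison. The log2 difference was 5.01 ± 1.08 in SMTseq0.25, where it did not pass without replicate 1 (adjusted p = 0.056, edgeR), and 4.63 ± 0.53 in SMTseq4. Cd2, an adhesion receptor of T and natural killer cells, was at 0, 0.681 and 0.28 CPM in the input in Tru70 and at 21.3, 14.5 and 19.9 CPM in the IP, a log2 difference of 5.39 ± 0.96 (adjusted p = 2.2e-03, edgeR), which did not pass without replicate 3 (adjusted p = 0.055, edgeR).

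**Figure D3:**
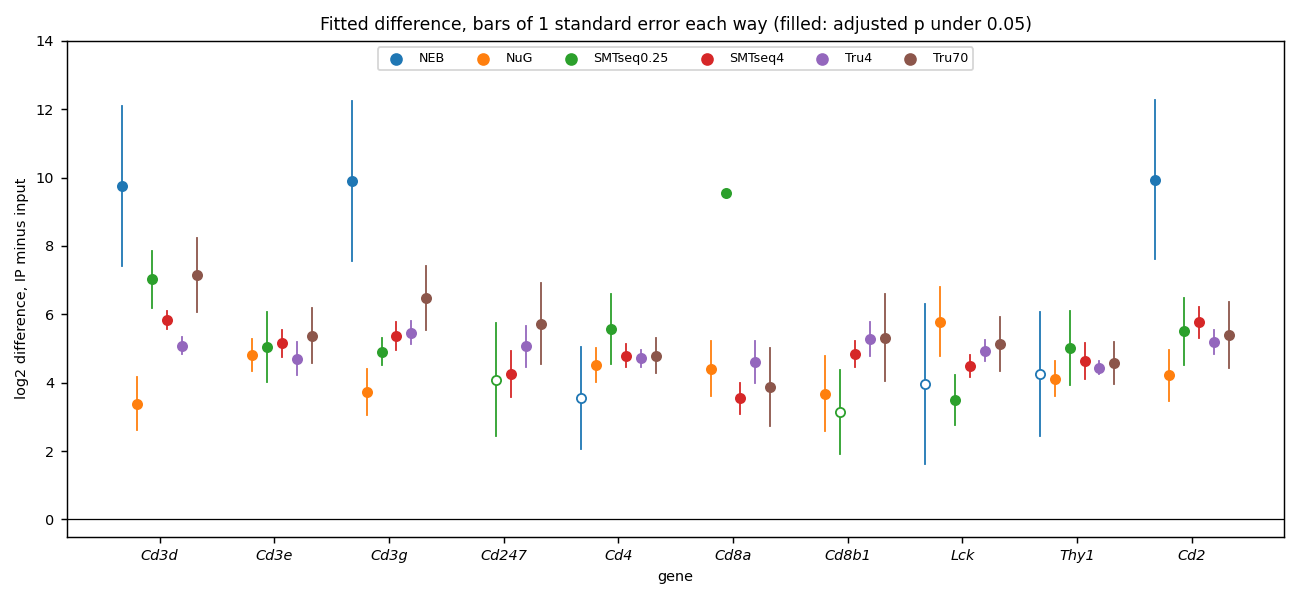
Fitted log2 difference of IP minus input for each gene in the 6 count protocols, with bars of 1 standard error each way, filled where the adjusted p is under 0.05. All points lie above 0, the largest differences are those of Cd3d, Cd3g and Cd2 in NEB, where the bar of Lck is as wide as theirs, and Cd8a in SMTseq0.25 has no bar because its input holds no count.

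In NEB the genes had either many counts or counts near 0. Of 30 values in the input 26 were at 3 counts or fewer, and of 30 values in the IP 5 were. Cd8a was at 0, 289 and 275 counts in the 3 IP libraries, Cd8b1 at 0, 633 and 93, and Cd247 at 0, 0 and 239. In the input Cd4 was at 78, 172 and 0 counts and Thy1 at 2, 160 and 0. Cd3d, Cd3g and Cd2 passed with log2 differences of 9.75 ± 2.34, 9.90 ± 2.33 and 9.94 ± 2.32 (adjusted p = 0.024, 0.023 and 0.022, edgeR), each against an input of 1 count in all. With the mouse as a block 0 of 6 tested passed in NEB by edgeR and 6 had an unadjusted p under 0.05. Without replicate 1, 2 or 3, 0 passed, and 7 of 9, 3 of 6 and 4 of 6 tested had an unadjusted p under 0.05. Without the low-count filter edgeR called 6 of 10 against 5.66% of all genes. DESeq2, which gave no p for Cd247, called 8 of the other 9 with all 3 mice, against 11.8% of all genes it tested. Cd4, Lck and Thy1 had differences of 3.55, 3.96 and 4.25 with adjusted p = 0.199, 0.401 and 0.203.

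SMTer had the fewest counts in genes, and its exon counts were not the main measure. Its values are RPKM over the whole gene span, introns included, and none of the 10 genes reached the filter of 1 RPKM in 3 libraries, so that 0 of 10 were tested against 13.2% of the tested genes called higher in the IP by limma. In RPKM every IP library lay above every input library for 10 of 10 genes, against 17.5% of all genes. The summed RPKM of the 10 genes was 2.51, 2.47 and 7.11 in the IP and 0.313, 0.0723 and 0.317 in the input. Multiplied by span and mapped reads, 91.3% of the low values came out as whole reads within 0.02 reads. A test of these reads with edgeR, chosen after the data were seen, called 10 of 10 genes higher in the IP against 20.3% of all tested genes, and 0 with the fractions as labelled. Without the low-value filter, limma called 0 of the 10, against 0.583% of all genes, and 8 had an unadjusted p under 0.05.

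The reads recovered in SMTer were most for Cd4 among the genes with no shared exon, with 10, 6 and 29 in the input and 366, 251 and 790 in the IP, a log2 difference of 4.59 ± 0.38 (adjusted p = 8.2e-06, edgeR). Cd3g had 11, 5 and 13 reads in the input and 157, 81 and 403 in the IP. Cd247 had the most reads but a difference of 1.48 ± 0.16, and Pou2f1, on the opposite strand, went from a mean of 0.0718 to 0.237 RPKM. In the exon counts of SMTer only Cd247 was frequent enough to be tested, and it passed as higher in the IP, against 13.7% of all tested genes by edgeR. The strand on which those exon reads were counted is not known here, so that reads of Cd247 and Pou2f1 cannot be told apart in this call. Rpl22 had 0, 6 and 2 exon counts in the SMTer input, where 2071, 739 and 2114 reads were recovered from RPKM. Counting on the strand opposite to the gene was not tested. Cd8a had no read in the input and 56, 26 and 118 in the IP.

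Levels can be compared between genes per exonic length only. In the IP of Tru70, Thy1 was at 16.9 ± 4.57 CPM per kb of exon (SD, n = 3), Lck at 15.1 ± 1.13, Cd3d at 13.5 ± 4.51, Cd4 at 11.4 ± 2.68, Cd2 at 10.7 ± 2.06, Cd3g at 9.68 ± 2.49, Cd3e at 6.71 ± 1.90, Cd8b1 at 4.42 ± 2.25, Cd8a at 3.03 ± 1.65 and Cd247 at 1.52 ± 0.447. No neighbours in this order had ranges that did not overlap. The order differed between protocols: Cd3e was first in NuG at 24 ± 1.73 CPM per kb and 7th in Tru70, and Cd3d was first in SMTseq4 at 24.6 ± 6.45. Cd8a was 9th and Cd247 10th in every one of the 6 protocols by full exonic length, which for Cd247 includes the bases shared with Pou2f1.

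**Figure D4:**
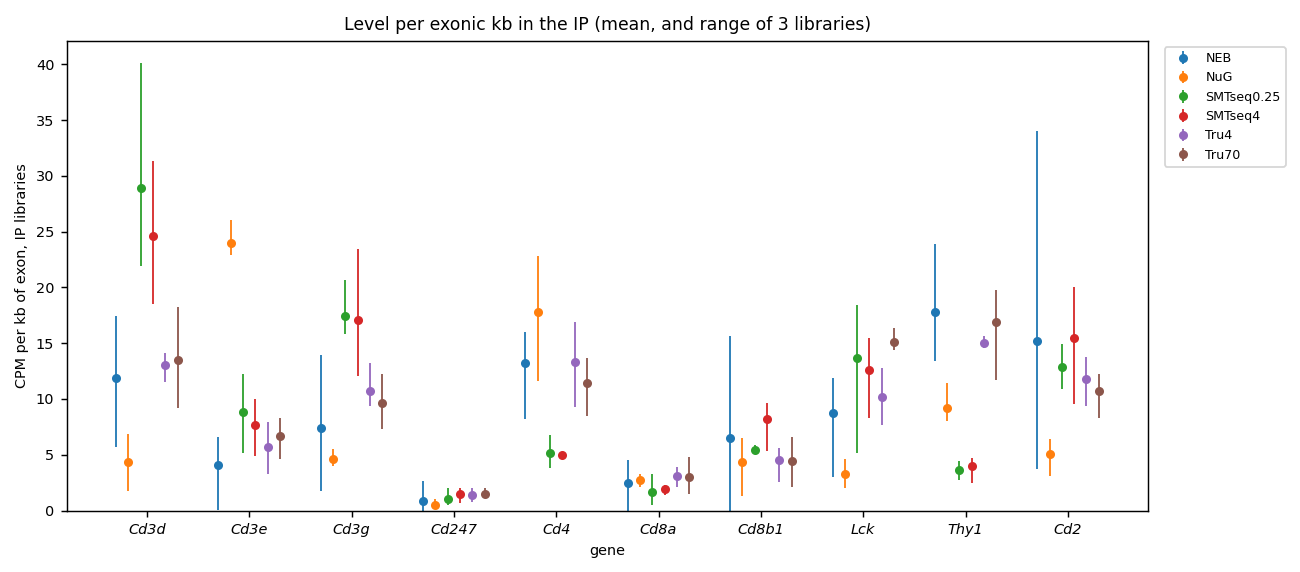
Level of each gene in the IP in CPM per kb of exon in the 6 count protocols, as the mean with a bar over the range of 3 libraries. Cd3e is highest in NuG, Thy1 is lower in both SMART-Seq protocols than in both TruSeq protocols, and Cd247 is the lowest gene throughout by full exonic length, bases shared with Pou2f1 included.

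Whether the difference itself changed with the protocol was tested against Tru70 in 1 model over the 36 count libraries. None of the 10 genes passed in NuG, SMTseq0.25, SMTseq4, Tru4 or NEB, where 0.135%, 0.683%, 0.21%, 0% and 4.21% of all 18582 genes tested did. At an unadjusted p under 0.05 there were 5 members in NEB, 2 in NuG, 1 in SMTseq0.25 and 0 in SMTseq4 and Tru4. The share of all genes under this unadjusted threshold was not counted, here or for the other unadjusted counts. The intervals are wide. For Cd3d the difference in NuG minus that in Tru70 was -3.72 with a 95% interval of -6.53 to -0.91 and an adjusted p of 0.380, for Cd4 in Tru4 it was -0.09 with -2.42 to 2.24, and for Cd247 in SMTseq4 it was -1.40 with -6.18 to 3.38. These intervals do not show that the protocols measured the same difference. In NEB the call depended on the fit: Cd3e differed without the filter (adjusted p = 6.0e-03) and without replicate 1 (adjusted p = 0.034), and Thy1 without replicate 2 (adjusted p = 0.025).

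The protocols shared the order of the 3 mice only in part. The summed level of the 10 genes in the IP was lowest in mouse 1 in 6 of 7 protocols and highest in mouse 3 in 5 of 7. Mouse 2 was highest in NEB and NuG and lowest in SMTer. In Tru70 the sums were 234.1, 266.5 and 305.6 CPM in mice 1, 2 and 3. The same libraries of mouse 1 held the lowest sum of Kupffer cell markers in 7 of 7 protocols and of B cell markers in 7 of 7, and the highest sum of erythroid genes in 5 of 7. In Tru70 the erythroid sum was 225829.0, 162676.3 and 129476.9 CPM in the IP of mice 1, 2 and 3, and its part in the other levels was not tested.

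The antigen-binding chains themselves followed the members. Of 7 constant segments, 6 were higher in the IP in Tru70 and 7 in Tru4 and SMTseq4, with 0 lower and a median of 5.70, 5.38 and 4.76 on the log2 scale, against 18.1%, 25.9% and 30.4% of all tested genes. Of those tested, 5 of 7 were higher in SMTseq0.25, 5 of 5 in NuG and 1 of 4 in NEB, and 2 of 2 in SMTer by limma, where the median was 1.46 on the log2(RPKM + 1) scale. Tcrg-C2 (median over the protocols 5.70), Trbc2 (5.61), Trac (4.89) and Tcrg-C4 (4.87) had the largest differences. Trac codes for the constant part of the alpha chain and Trbc2 for one of the beta chain. Trbc1 and Trbc2, and Tcrg-C1 and Tcrg-C2, are near-identical copies, so the split of reads within each pair is uncertain. Whether Tcrg-C4 shares reads with the other gamma segments was not tested.

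Of 18 genes of receptor signalling, 15 of 17 tested were higher in the IP in Tru70 and 17 of 17 in Tru4, none lower. Over all tested genes, 18.1% in Tru70 and 25.9% in Tru4 were called higher, and 16.7% and 24.2% lower. Sh2d1a, an adaptor (median over the protocols 7.26), Lat, the scaffold below the receptor (5.50), and Txk, a kinase of the Tec family (5.23), were among the genes with the largest differences. Zap70, the kinase that binds the phosphorylated chains, was singled out after its values were seen: it had a median of 0.97, passed in 2 of 6 protocols, and stood at 5.53 CPM in the Tru70 input. Of 15 genes of costimulation and homing, 7 of 12 tested were higher and 1 lower in Tru70. Cxcr6, Ccr7 and Cd5 had medians of 5.36, 5.31 and 5.0. The 1 lower gene was S1pr1, a receptor that also marks endothelium, named after its values were seen. Of 12 transcription factors 5 of 11 tested were higher and 1 lower in Tru70. Runx3, Bcl11b, Eomes and Gata3 had medians of 6.09, 5.78, 5.63 and 4.64. Tcf7, also named after its values were seen, had a median of 0.38 and was called higher in 0 of 6 protocols and lower in 1.

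Many markers of other blood cells that the IP could hold were also higher in it, and their part in the members' levels was not tested. In Tru70, 10 of 11 tested natural killer and cytotoxic genes were higher in the IP (median 4.97), as were 11 of 11 B cell genes (5.44), 7 of 8 dendritic cell genes (4.63), 10 of 10 Kupffer cell genes (4.99), 6 of 9 erythroid genes (4.61) and 3 of 8 neutrophil genes (4.46), and none of them was lower there. Over all tested genes in Tru70, 18.1% were called higher and 16.7% lower. The lists are not uniform: Klf1, an erythroid transcription factor, had a median of -2.04 over 4 protocols and was lower in 2 of them, and Cebpe, a factor of granulocyte precursors, had a median of -0.76 over 4 and was lower in 1, and neither was higher in any. Both were named after their values were seen. Over the protocols, genes among those with the largest differences had medians of 5.34 to 5.50 for Klrd1, Klre1, Gzma and Nkg7, of 5.02 to 5.58 for Cd79a, Pax5, Igkc and Cd79b, of 4.46 to 5.72 for Siglech, Flt3, Itgax and Xcr1, of 4.92 to 5.47 for C1qa, Marco, Cd5l and C1qb, of 5.27 to 5.51 for S100a9, S100a8, Mpo and Ltf, and of 5.57 to 6.22 for Hbb-bt, Hbb-bs and Hba-a1. In the IP of Tru70 the 10 T cell genes summed to 234.1 to 305.6 CPM, where the 10 Kupffer cell genes summed to 19337.7 to 28192.1 CPM.

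The marker lists of hepatocytes, stellate cells and bile duct cells held genes that were lower in the IP and none that was higher, and that of sinusoidal endothelium held both. In Tru70, 10 of 10 hepatocyte genes were lower in the IP with a median of -2.24, and 6 of 8 stellate cell genes with -1.35, with none higher. Of 5 cholangiocyte genes 2 were lower. Of 8 endothelial genes 1 was higher and 3 lower in Tru70, 2 higher and 4 lower in Tru4, 3 higher and 4 lower in SMTseq4, and 3 higher and 1 lower in SMTseq0.25. Over all tested genes, 18.1%, 25.9%, 30.4% and 19.8% were called higher in Tru70, Tru4, SMTseq4 and SMTseq0.25. Those called lower were 16.7%, 24.2%, 28.7% and 17.1%. The endothelial counts of higher genes lie near these shares in Tru70, Tru4 and SMTseq4. Alb, Cyp3a11, Cps1 and Apoa1 had medians over the protocols of -2.95 to -2.42. Dcn, Reln, Col1a1 and Col3a1 had medians of -2.59 to -1.31. Cdh5 stood at 2.60 and was higher in 7 of 7 protocols, against -2.16 for Clec4g, -1.39 for Lyve1 and -0.95 for Kdr. Pecam1 at 0.88 and Stab2 at 0.63, named after their values were seen, were higher in 4 of 6 and 2 of 6. Krt19, Spp1, Sox9 and Epcam ran from -4.47 to -0.22. Gfi1 itself was at 0 in all 6 NEB libraries, reached 3.41 CPM at most in the IP of the count protocols outside SMTer, and was higher in SMTseq4 with 3.38 ± 0.78 (adjusted p = 3.5e-03, edgeR), and did not pass in Tru4, the other protocol in which it was tested, with 2.88 ± 1.29 (adjusted p = 0.089, edgeR). Rpl22 did not pass in Tru70, with a difference of -0.03 ± 0.32 (adjusted p = 0.963, edgeR).

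The genes whose pattern was most like the mean of Cd3d, Cd3e, Cd3g and Cd247 over 36 libraries, on log2(CPM + 1) centred within each protocol, were Snx17 (r = 0.983), Nkg7 (0.981), Cd7 (0.979), H2-Eb1 (0.978), C1qb (0.977), Cd5l (0.976), Gzma (0.976), Tyrobp (0.975), Cst3 (0.974) and Klf2 (0.973). The libraries share mice and fraction, and the measure is a description with no test. The other members stood further down, from Lck at rank 269 (r = 0.953) to Cd8b1 at rank 1355 (r = 0.898).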

How the data were processed

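Per the labels and methods of the study, reads were trimmed, aligned with TopHat to GRCm38 and counted per gene by the authors, who deposited exon counts and RPKM for each of 42 libraries. Replicates were not pooled. The study did not analyse strand, and the strand setting of the counter is not given in the sources used here. The deposited RPKM is RPKM over the whole gene span: times span and mapped reads it gives whole reads for 91.3% of low SMTer values (within 0.02 reads), and edgeR on these reads is an alternative. Counts were tested for IP against input in each of 6 protocols with edgeR 4.0.16 (quasi-likelihood, filterByExpr, TMM) and against Tru70 in an interaction model. The main fits hold no term for the mouse, which enters only where a block is named. SMTer was tested with limma 3.58.1 on log2(RPKM + 1), after a filter of 1 RPKM in 3 libraries. R was 4.3.3, DESeq2 1.42.0 and Python 3.11.15. Fold changes on that scale understate low genes. CPM scales each count to a common total of counts in genes, and levels per kb divide by union exon length. The scripts were tested on simulated counts. All tests are two-sided, with Benjamini-Hochberg adjustment over all genes tested at 0.05.

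The deposited names give a replicate number, which is taken here as the mouse that pairs the fractions. In the study's table of detected features, the read totals of replicates 1 and 3 stand the other way round in NEB, NuG, SMTer, Tru4 and Tru70. The feature numbers there follow the deposited replicate numbers. Which order is that of the animals was not tested. The correlation of same-numbered deviations ran from 0.013 in NEB to 0.42 in SMTer.

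All 10 members are named in every protocol. Of the other lists, the 4 genes with the largest median absolute log2 difference among those tested in at least 4 protocols are named, with Gfi1, Rpl22 and the 10 genes of most similar pattern among those with a mean of at least 1 CPM. Some genes that this rule names are not reported here. Members and lists were chosen with earlier results of these data known. Promoters come from RefSeq tables of GRCm38.p6.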

Additional observations from a re-analysis of the deposited data

How the results depend on the processing

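With the fractions as labelled, the number of T cell genes called higher in the IP was 0 in NEB, 0 in NuG and 0 in Tru4, and the difference of Cd3g in NEB (-0.54) and of Cd3d in NuG (-0.09) turned below 0. In NEB the 3 calls became 0 with the replicate block, 6 without a filter on low counts and 8 with DESeq2, and 0 to 0 on leaving out 1 replicate. Leaving out 1 replicate gave 8 to 9 calls in NuG, 7 to 8 in SMTseq0.25, 10 to 10 in SMTseq4, 10 to 10 in Tru4 and 7 to 10 in Tru70. In SMTer, edgeR on exon counts called 1 gene, Cd247, the one tested, whose reads cannot be told apart from those of Pou2f1, and edgeR on reads recovered from RPKM 10, with the replicate block 10 and without 1 replicate 8 to 10, all chosen after seeing the data except the exon counts. Against Tru70, NEB had 1 call with the fractions as labelled, 1 without the filter and 0 to 1 without 1 replicate. The replicate block changed no other count of calls by over 1.5 times, and outside NEB the one single call it changed was that of Cd247 in SMTseq0.25. RLE size factors changed no call of a single gene. Of 410 single-gene results under the alternatives, 361 kept direction and side of the threshold, 39 lost the call, 8 gained it and 2 turned. Of 30 member values in the input, 26 were at 3 counts or fewer in NEB, 23 in NuG, 11 in SMTseq0.25, 11 in Tru70, 3 in SMTseq4 and 3 in Tru4, so that the folds there rest on few counts. This order is not that of the total counts.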
